A study of Sorghum bicolor with 24 samples.

Results

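The genes described here had opposite responses to abscisic acid (ABA) in the roots and shoots of sorghum seedlings. A gene model was taken when r, the log2 of (mean RPKM with ABA + 1) over (mean RPKM with NaOH + 1), was at least 1 in size in both tissues with opposite signs, and when the 3 ABA libraries did not overlap the 3 NaOH libraries in either tissue. RPKM scales reads to the length of the exons and to the depth of the library, so levels of different genes can be set side by side on it. Of 34145 gene models 33 met the rule: 11 were higher in roots and lower in shoots with ABA, called root-up shoot-down genes below, and 22 were lower in roots and higher in shoots, called root-down shoot-up genes. A further gene model, excluded by name in the rule, was left out. The genes were thus selected on the RPKM values of the ABA and NaOH libraries, which are given as a description without a test.

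The 24 RNA-Seq libraries were made from the inbred line BTx623, 3 for each treatment and tissue. Seedlings grown in hydroponic Hoagland's solution received their treatment on day 8 and were harvested after 27 h. Treatments were 20 µM ABA dissolved in NaOH with NaOH as its control, and 20% polyethylene glycol (PEG-8000), an osmotic agent that makes water harder for roots to take up, with H2O as its control. The NaOH solution was 0.2 M per the labels. The paper states a far lower, micromolar concentration for the control added to the Hoagland's solution, so the sources differ on its strength in the medium. In the rule the ABA libraries were set against the NaOH libraries alone. Each replicate was a hydroponic experiment of its own, its RNA pooled from 3 buckets of 10 plants per treatment, and the root and shoot libraries of a treatment and replicate came from the same plants. No library is therefore a single plant, and roots and shoots were parted at the seed coat.

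Abscisic acid is the hormone that plants accumulate as water becomes scarce. Its receptors inhibit protein phosphatases of type 2C, which frees SnRK2 kinases to activate bZIP transcription factors and, through them, genes such as those of late embryogenesis abundant (LEA) proteins and dehydrins. Roots take up water and mineral nutrients such as sulfate, phosphate, iron and silicon, whereas shoots fix carbon and transpire, and both organs grow, build cell walls and defend themselves with partly different gene sets.

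Reads per library numbered 12891739 to 22840516, with a median of 15352198, and replicate 3 was the deepest in every group but NaOH shoots, where replicate 2 was the deepest. Base calls came from version 1.6 of the RTA software in replicate 3 of every group and in NaOH shoots replicate 2, and from version 1.5 in the other libraries, and the part of this in the results was not tested. Control libraries differed in how closely they followed their group, where some library is always the lowest. Across 22667 genes the log2(RPKM + 1) values of NaOH roots replicate 3 had a mean Pearson r of 0.9691 with the other NaOH root libraries. Replicates 1 and 2 of NaOH roots had 0.9824 and 0.9772. H2O shoots replicate 2 had 0.9579, against 0.9660 and 0.9765 for replicates 1 and 3. NaOH shoots replicate 2 had 0.9742, close to the 0.9762 of replicate 1, and replicate 3 had 0.9846. These are correlations across genes, which are not independent replicates. For 8 of the 11 root-up shoot-down genes NaOH roots replicate 3 was the NaOH root library nearest to the ABA libraries, and for 8 of 11 NaOH shoots replicate 2 was the nearest NaOH shoot library. For the 22 root-down shoot-up genes these numbers were 10 and 6. Without NaOH roots replicate 3 the rule gave 20 and 23 genes, of which 11 and 18 were members, and without NaOH shoots replicate 2 it gave 17 and 27, of which 9 and 21 were members. The summed RPKM of 17 genes of light harvesting, photosystem subunits and the small subunit of Rubisco was 7.91 to 50.8 in the 12 root libraries. Among shoots it lay between 22508.6 and 28020.7 with ABA against 55793 and 64753.3 with NaOH, and between 29488 and 37353.4 with PEG against 55794.5 and 59546.6 with H2O. These 17 genes were thus low in every root library. Their sum was lower in ABA shoots than in NaOH shoots and lower in PEG shoots than in H2O shoots, and its part in the shoot values below was not tested. The 17 were found among genes that the study called in these samples, so the fall of their sum is not independent evidence. With reads scaled by TMM, which allows for a few genes taking many reads, in place of the deposited RPKM, the rule gave 13 and 22 genes, 10 and 20 of them members. In such bulk tissue, fewer cells of a type and less RNA per cell cannot be told apart.

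The share of all gene models that met the rule in one tissue gives the background for these counts. With ABA 1192 gene models (3.49%) were up and 1611 (4.72%) were down in roots, and 763 (2.23%) were up and 560 (1.64%) were down in shoots. The 11 gene models that were up in roots and down in shoots were 0.0322% of all and the 22 of the other class 0.0644%, whereas 330 (0.966%) were up in both tissues and 135 (0.395%) were down in both. All 33 genes have a description in the study's tables, which list only genes that it called in these samples. Of these, 2 of the 11 and 7 of the 22 are described only as uncharacterized, expressed or predicted proteins.

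**Figure D1:**
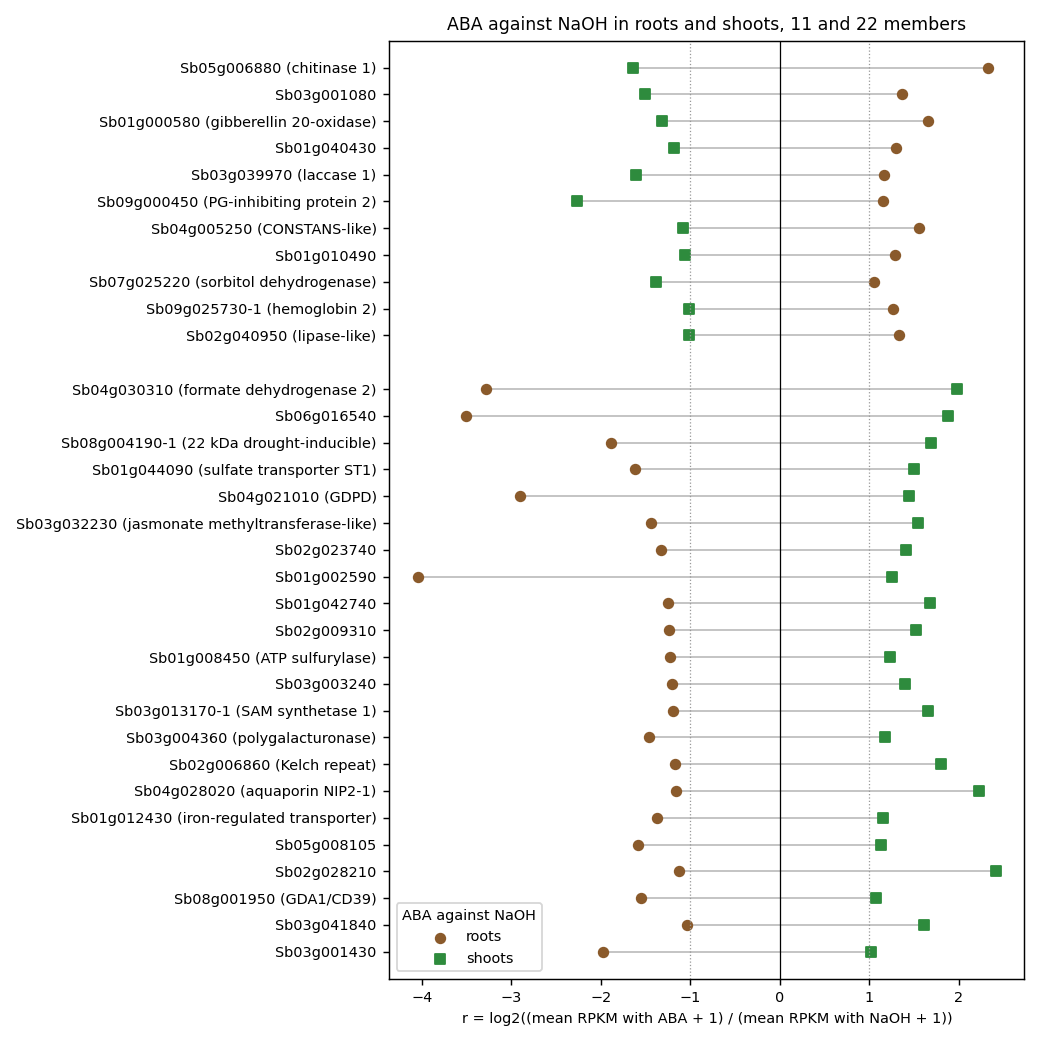
Log2 ratio r of mean RPKM with ABA against NaOH (pseudocount 1, x axis) in roots (circles) and shoots (squares) for the 11 root-up shoot-down genes (upper block) and the 22 root-down shoot-up genes (lower block), each block ordered by the smaller of the 2 absolute ratios. Dotted lines mark the limits of −1 and 1, and the ratios run from −4.04 for Sb01g002590 in roots to 2.41 for Sb02g028210 in shoots.

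The root-up shoot-down genes include a chitinase, a polygalacturonase-inhibiting protein and a laccase. Chitinases hydrolyse chitin, a polymer of fungal cell walls. Sb05g006880, described as chitinase 1 (chromosome 5, 11621307 to 11622578), had 23.5, 17.5 and 14.8 RPKM in ABA roots against 2.77, 1.65 and 4.33 in NaOH roots. In shoots it had 12.53, 12.4 and 10.0 RPKM with ABA against 46.4, 29.2 and 39.9 with NaOH. It ranked first in its class by the smaller of its ratios, with r of 2.32 in roots and −1.64 in shoots, and its ABA root libraries lay above its ABA shoot libraries although its NaOH roots lay far below its NaOH shoots. Polygalacturonase-inhibiting proteins are wall proteins that block fungal pectin-degrading enzymes. Sb09g000450, polygalacturonase inhibiting protein 2 (chromosome 9, 223935 to 225025), had 6.37, 5.10 and 3.95 RPKM in ABA roots against 2.17, 1.19 and 1.90 in NaOH roots, and 6.65, 3.59 and 6.67 RPKM in ABA shoots against 40.7, 20.6 and 31.4 in NaOH shoots. Its shoot ratio, −2.26, was the lowest of the 11. Laccases are copper oxidases that couple phenolics, lignin precursors among them. Sb03g039970, laccase 1 (chromosome 3, 67609617 to 67613678), had 43.4, 36.5 and 29.0 RPKM in ABA roots against 11.7, 9.68 and 25.3 in NaOH roots, and 5.10, 2.50 and 3.35 against 15.9, 9.47 and 14.1 in the shoots. In roots its NaOH replicate 3 was just below the lowest ABA library.

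Gibberellin 20-oxidase makes precursors of the active gibberellins, hormones that promote growth. Sb01g000580 (chromosome 1, 462325 to 464149), so described, had 17.8, 16.02 and 14.29 RPKM in ABA roots against 4.45, 3.55 and 5.14 in NaOH roots. In ABA shoots it had 0.308, 0.705 and 0.857 RPKM against 2.94, 2.33 and 3.82 in NaOH shoots, so its level was low in both groups of shoots. Sb04g005250 (chromosome 4, 5107155 to 5108908), classed as a CONSTANS-like zinc finger transcription factor, had 20.0, 16.7 and 16.9 RPKM in ABA roots against 5.24, 3.91 and 7.02 in NaOH roots, and 20.1, 14.297 and 16.6 in ABA shoots against 34.6, 32.7 and 44.3 in NaOH shoots. With ABA its root and shoot libraries overlapped, whereas with NaOH they were far apart. Sorbitol dehydrogenase oxidises the sugar alcohol sorbitol to fructose. Sb07g025220 (chromosome 7, 60256535 to 60259043), so described, had 12.0, 12.2 and 12.1 RPKM in ABA roots against 3.23, 2.45 and 10.3 in NaOH roots, where replicate 3 was the highest, and 34.4, 19.5 and 23.7 in ABA shoots against 82.6, 58.3 and 65.5 in NaOH shoots. Hemoglobin 2 belongs to the plant hemoglobins, which bind oxygen and nitric oxide. Its model Sb09g025730-1 (chromosome 9, 55141225 to 55143647) was the most abundant of the class in roots, with 174, 141 and 150.2 RPKM with ABA against 54.3, 44.9 and 92.7 with NaOH, and had 15.1, 21.2 and 15.8 in ABA shoots against 29.0, 45.7 and 33.8 in NaOH shoots.

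Lipases release fatty acids from lipids. Sb02g040950, a lipase-like protein, was nearly silent in control roots. It had 1.87, 2.06 and 1.18 RPKM in ABA roots against 0.103, 0.0526 and 0.0667 in NaOH roots, where no library had more than 2 reads. The summed reads were 108 with ABA and 5 with NaOH, a ratio of 21.3 after scaling with a 95% counting interval of 9.12 to 65.6, which covers counting error only. In shoots it had 8.26, 4.04 and 6.24 RPKM with ABA against 12.8, 12.9 and 14.6 with NaOH. The remaining 3 of the 11, Sb03g001080 and Sb01g010490 (both uncharacterized) and Sb01g040430 (described by similarity to the rice model Os03g0261100), had r of 1.29 to 1.37 in roots and −1.503 to −1.06 in shoots.

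Primers for quantitative PCR were designed by the study for a gene of each class, and the study used such primers to check its calls. The outcome for these genes is not given here. They are the sequences by which the transcripts of Sb02g040950 (chromosome 2, 74853927 to 74856893) and of Sb03g041840 (chromosome 3, 69295732 to 69298720) can be measured apart from sequencing, and the primers are shown for that reason.
Sb02g040950 forward primer: gttcaagcaggtgctctcca
Sb02g040950 reverse primer: ggaacaaggggtggatgtagt
Sb03g041840 forward primer: cagatatcgtggctctccatc
Sb03g041840 reverse primer: actttgtccatcggggtcac

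The root-down shoot-up genes include a sulfate transporter and an ATP sulfurylase. Sulfate enters cells through sulfate transporters, and ATP sulfurylase activates it in the first step of its assimilation. Sb01g044090, sulfate transporter ST1 (chromosome 1, 67251110 to 67255570), had 7.83, 7.60 and 8.52 RPKM in ABA roots against 21.8, 22.8 and 35.1 in NaOH roots, and 33.04, 38.4 and 33.9 in ABA shoots against 12.9, 8.43 and 14.0 in NaOH shoots. Every ABA shoot library was thus above every ABA root library, and every NaOH shoot library was below every NaOH root library. Sb01g008450, ATP sulfurylase (chromosome 1, 7287008 to 7290664), had 103, 100.3 and 116 RPKM in ABA roots against 199, 214 and 338 in NaOH roots, and 546, 484 and 644 against 265, 182 and 261 in shoots. S-adenosylmethionine synthetase makes the general methyl donor from methionine and ATP. Its model Sb03g013170-1 (chromosome 3, 16052553 to 16054768) had 732, 640.2 and 597 RPKM in ABA roots against 1473, 1168 and 1851 in NaOH roots, and 766, 745 and 649 in ABA shoots against 211, 229.8 and 240.0 in NaOH shoots. The levels of the 2 tissues overlapped with ABA. Sb03g032230, similar to the methyltransferase that turns jasmonic acid into its methyl ester in Arabidopsis, had 2.79, 2.81 and 3.01 RPKM in ABA roots against 7.96, 7.68 and 12.7 in NaOH roots, and 1.83, 2.79 and 2.06 against 0.162, 0.103 and 0.0560 in shoots.

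Aquaporins of the NIP2 group let silicic acid into rice roots. Sb04g028020, described as aquaporin NIP2-1 (chromosome 4, 57971834 to 57975693), had 302, 255 and 179 RPKM in ABA roots against 635, 440.1 and 572 in NaOH roots, and 401, 372 and 345 in ABA shoots against 96.04, 62.3 and 78.3 in NaOH shoots. Glycerophosphodiester phosphodiesterases release glycerol 3-phosphate from lipid breakdown products. Sb04g021010, so described (chromosome 4, 49213175 to 49217382), had 48.1, 50.3 and 32.1 RPKM in ABA roots against 425, 409 and 158 in NaOH roots, and 14.8, 7.17 and 14.9 in ABA shoots against 2.18, 5.40 and 4.05 in NaOH shoots. Its NaOH roots replicate 3 was far below the other NaOH root libraries and still above every ABA root library. Sb01g012430, an iron-regulated metal transporter (chromosome 1, 11475422 to 11479874), had 41.6, 32.0 and 32.9 RPKM in ABA roots against 96.2, 66.0 and 119 in NaOH roots, and 5.95, 6.69 and 3.84 against 1.52, 2.73 and 1.48 in shoots.

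Formate dehydrogenase oxidises formate to carbon dioxide in mitochondria. Sb04g030310, formate dehydrogenase 2 (chromosome 4, 60324415 to 60326306), ranked first of the 22 by its smaller ratio, with r of −3.28 in roots and 1.98 in shoots. It had 52.8, 48.1 and 84.4 RPKM in ABA roots against 557, 425 and 844 in NaOH roots, and 35.3, 11.6 and 15.9 in ABA shoots against 5.47, 3.78 and 4.38 in NaOH shoots. Its ABA root libraries nevertheless all lay above its ABA shoot libraries. The class also holds abundant transcripts, among them Sb06g016540, described by similarity to the rice protein OSIGBa0076I14.3, and Sb08g004190-1, described as a 22 kDa drought-inducible protein. Sb06g016540 (chromosome 6, 45323587 to 45324473) had 128, 102 and 87.3 RPKM in ABA roots against 1517, 1172 and 961 in NaOH roots, and 1768, 667 and 970.3 in ABA shoots against 532, 134 and 258 in NaOH shoots. Sb08g004190-1 (chromosome 8, 4869569 to 4870563) had 477, 481 and 416 RPKM in ABA roots against 1999, 1708 and 1367 in NaOH roots, and 4056, 2279 and 3493 in ABA shoots against 1535, 529 and 968 in NaOH shoots. In both, every ABA shoot library lay above every ABA root library.

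The lowest root ratio of all was that of Sb01g002590, an expressed protein of no stated function, which had 2.40, 2.25 and 1.25 RPKM in ABA roots against 57.2, 70.5 and 15.7 in NaOH roots, and 4.27, 2.10 and 3.55 in ABA shoots against 1.27, 0.455 and 0.715 in NaOH shoots. The highest shoot ratio was that of Sb02g028210, similar to the rice model Os09g0484900, with 26.4, 34.1 and 19.5 RPKM in ABA shoots against 5.64, 2.01 and 4.97 in NaOH shoots and 5.02, 4.09 and 4.49 in ABA roots against 10.3, 6.73 and 16.03 in NaOH roots. Polygalacturonase cleaves the pectin of cell walls, and Sb03g004360, so described, had r of −1.46 in roots and 1.17 in shoots. GDA1/CD39 proteins are phosphatases that remove phosphate from nucleotides, and their model Sb08g001950 had r of −1.55 in roots and 1.07 in shoots. Kelch repeats form a propeller-shaped fold that often binds other proteins, and the Kelch repeat protein Sb02g006860 had r of −1.17 in roots and 1.80 in shoots. Sb01g042740, Sb02g009310, Sb02g023740, Sb03g001430, Sb03g003240, Sb03g041840 and Sb05g008105, which carry no functional description, had root ratios of −1.98 to −1.03 and shoot ratios of 1.02 to 1.67. The model of Sb05g008105 is short, with 237 bases of exon, and is of low confidence in the annotation.

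**Figure D2:**
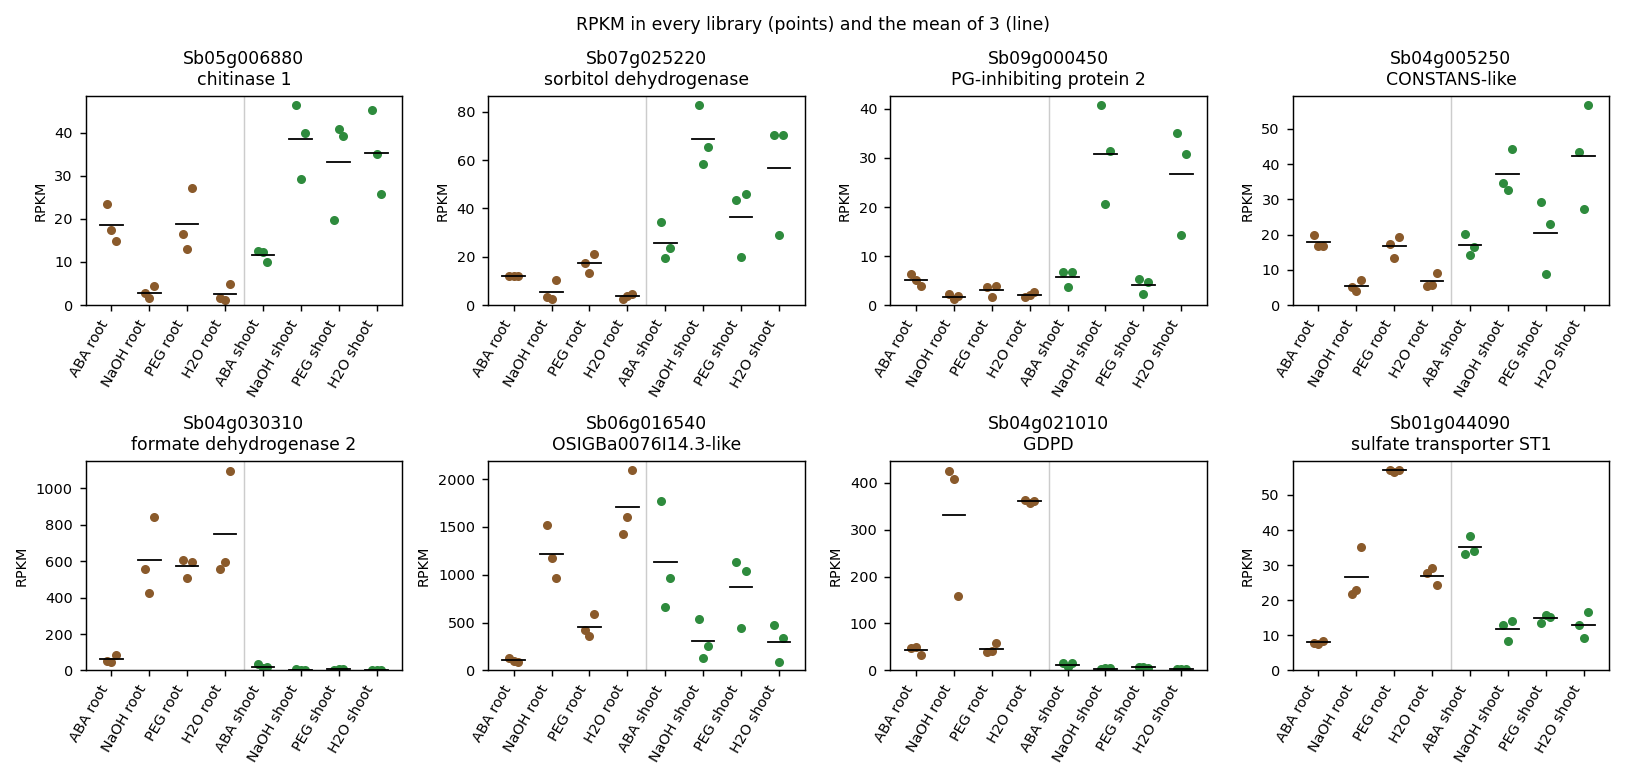
RPKM (linear axes from 0) of 8 genes in every library of the 8 groups, with root libraries in brown and shoot libraries in green and a line at the mean of 3. The upper row holds root-up shoot-down genes and the lower row root-down shoot-up genes, and in Sb01g044090 PEG roots (56.6 to 57.2) lie above H2O roots (24.3 to 29.1) while ABA roots (7.60 to 8.52) lie below NaOH roots (21.8 to 35.1).

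Ratios near the limit show how much the membership depends on it. In the root-up shoot-down class the members nearest to the limit were Sb02g040950 (1.33 in roots, −1.01 in shoots) and Sb09g025730-1 (1.26, −1.02). Just outside, with libraries that do not overlap, were the uncharacterized Sb03g028060 (0.96, −1.09) and Sb10g006140, an anthocyanidin glucosyltransferase (0.96, −1.53). Among root-down shoot-up genes Sb03g001430 (−1.98, 1.02) and Sb03g041840 (−1.03, 1.61) lay just inside, and Sb10g000890 (−0.96, 1.26) and the lysophospholipase-like Sb03g027720 (−0.98, 0.96) just outside. A further 6 and 3 gene models passed the limit of r in both tissues and were not taken because the libraries overlapped in a tissue. Among them were 2 chitinases. Sb09g001210 had 68.1, 58.7 and 47.0 RPKM in ABA roots against 0.816, 0.574 and 1.42 in NaOH roots, and 5.05, 0.908 and 5.75 in ABA shoots against 41.1, 3.23 and 46.5 in NaOH shoots. Sb06g016510 had 35.2, 30.8 and 25.8 RPKM in ABA roots against 0.295, 0.450 and 0.238 in NaOH roots, and 0.685, 0.0712 and 0.901 in ABA shoots against 8.14, 0.616 and 8.70 in NaOH shoots. In both, NaOH shoots replicate 2 lay among the ABA shoot libraries while the other NaOH shoot libraries lay above all of them.

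Gene families of the members were counted among the genes that the study's own tables describe, which are genes it called in these samples, so these counts are not independent evidence of a direction. Of 11 chitinases 8 were up and 2 down in ABA roots by the rule for that tissue, and 0 were up and 3 down in ABA shoots. Of 10 laccases 1 was up and 6 were down in ABA roots, and 1 was up and 6 were down in ABA shoots. The 1 laccase that was up in ABA roots was Sb03g039970. Of 5 CONSTANS-like genes 4 were up in ABA roots, 0 were down there, and 2 were down in ABA shoots. Of 14 aquaporins 2 were up and 5 down in ABA roots, and 2 were up and 4 down in ABA shoots. Among 7 genes of sulfate uptake and assimilation, a group chosen after the members were seen, 2 were up and 5 down in ABA roots, and 2 were up and 0 down in ABA shoots. The 2 that were up in roots were other transporters, Sb01g046410 and Sb10g003050, with r of 2.20 and 1.98, and Sb01g013290, which carries the same description as Sb01g044090, had −3.38. The 8 LEA and dehydrin genes were all up in ABA roots, with 5 of them up in ABA shoots and none a member, and of 7 genes of the ABA signalling core 4 were up and 1 down in roots and 3 up and 0 down in shoots. Of 49 peroxidases 7 were up and 30 down in ABA roots and 5 up and 3 down in ABA shoots, and of 34 expansins 1 was up and 20 down in roots and 1 up and 8 down in shoots, and neither family held a member.

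The balance of these genes between the tissues differed between the ABA and NaOH libraries. With ABA 7 of the 22 root-down shoot-up genes had a higher mean RPKM in roots than in shoots, against 22 of 22 with NaOH. The size of their log2 root to shoot ratio of mean RPKM had a median of 1.34 with ABA against 2.43 with NaOH, and it was smaller with ABA for 16 of 22. Of the 11 root-up shoot-down genes 8 had a higher mean in roots with ABA, against 3 with NaOH. The size of their ratio had a median of 1.34 with ABA against 1.49 with NaOH and was smaller with ABA for 7 of 11. The rule fixes the direction of these shifts, so they are given without a test. These RPKM levels are scaled to the depth of the library and not by TMM. For H2O roots against H2O shoots, library size alone gave a median log2 fold change over all genes of 0.73, against 0.10 with TMM. Root levels may thus stand too high on RPKM, and the counts were not repeated with TMM. ATP sulfurylase, with mean RPKM of 250 in NaOH roots and 236 in NaOH shoots, is among the 22.

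The H2O libraries were no part of the rule and give a second set of untreated plants. For all 22 root-down shoot-up genes the 3 H2O libraries lay on the NaOH side of the 3 ABA libraries in both tissues. For the root-up shoot-down genes this held for 11 of 11 in roots and 10 of 11 in shoots. The exception was sorbitol dehydrogenase Sb07g025220, of which H2O shoots replicate 2 (29.1 RPKM) lay among the ABA shoot libraries. Medians of the ratio against H2O in place of NaOH were 1.39 in roots and −1.17 in shoots for the 11 genes, and −1.41 in roots and 1.52 in shoots for the 22. The ABA libraries entered both comparisons, so the 2 sets of ratios are not independent of each other. The share of all gene models with H2O libraries on the NaOH side was not computed. The genes were also chosen for ABA libraries that lie apart from NaOH libraries, so the counts are a description alone.

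Levels in plants without either treatment were compared between the tissues in the H2O libraries by the quasi-likelihood test of edgeR, with p-values adjusted after Benjamini and Hochberg across 22667 genes. A gene was called where its adjusted p was below 0.05, its log2 fold change was 1 or more in size and at least one of the compared groups reached 2X in median depth. All 33 genes passed the filter on low counts and were tested. Of the 22 root-down shoot-up genes 16 were called higher in H2O roots than in H2O shoots, against 17.6% of all genes, and 0 were called lower, against 17.8%. Of the 11 root-up shoot-down genes 0 were called higher in H2O roots and 8 were called lower. At an unadjusted p under 0.05, 1 of the 22 was lower (DESeq2 called 0) and 1 of the 11 was higher (DESeq2 called 0). Among all genes DESeq2 called 8027, 3908 of them higher in roots, and the share at an unadjusted p was not computed. The medians of the log2 fold change were 2.23 for the 22 genes and −2.34 for the 11, beside 0.10 for all genes. The rule did not use the H2O libraries, but it used the NaOH libraries, in which all 22 were likewise higher in roots on RPKM. With a pseudocount of 1 the rule can call a gene down only where the control level is not low. The tissue contrast is therefore not independent of how the genes were chosen.

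Formate dehydrogenase Sb04g030310 had the highest H2O root to shoot fold of the 33, with 557, 594 and 1097 RPKM in H2O roots against 3.62, 2.84 and 4.28 in H2O shoots (log2 fold change 7.11 ± 0.46, SE, edgeR adjusted p = 2.46e-11). The phosphodiesterase Sb04g021010 had 362, 356 and 362 RPKM in H2O roots against 2.79, 2.50 and 3.42 in H2O shoots (6.34 ± 0.41, edgeR adjusted p = 2.35e-11). The iron-regulated transporter Sb01g012430 had 95.6, 90.1 and 100.4 RPKM against 0.879, 2.07 and 1.61 (5.38 ± 0.33, edgeR adjusted p = 1.28e-11). In these 3 genes the H2O root and shoot libraries lay far apart. On the other side stood sorbitol dehydrogenase Sb07g025220, with 2.69, 3.77 and 4.39 RPKM in H2O roots against 70.2, 29.1 and 70.4 in H2O shoots (−4.57 ± 0.51, edgeR adjusted p = 1.01e-07), chitinase Sb05g006880 (−4.28 ± 0.47) and the polygalacturonase-inhibiting protein Sb09g000450 (−4.27 ± 0.45). The lipase-like Sb02g040950 had 2 reads in all 3 H2O root libraries together against 813 in H2O shoots, a scaled shoot to root ratio of 629 with a 95% counting interval of 174 to 5194. Gibberellin 20-oxidase, laccase 1 and hemoglobin 2 of the 11 and ATP sulfurylase, sulfate transporter ST1, the 22 kDa drought-inducible protein, Sb02g009310, Sb02g023740 and Sb02g028210 of the 22 were not called, with log2 fold changes of −0.62 to 0.90.

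**Figure D3:**
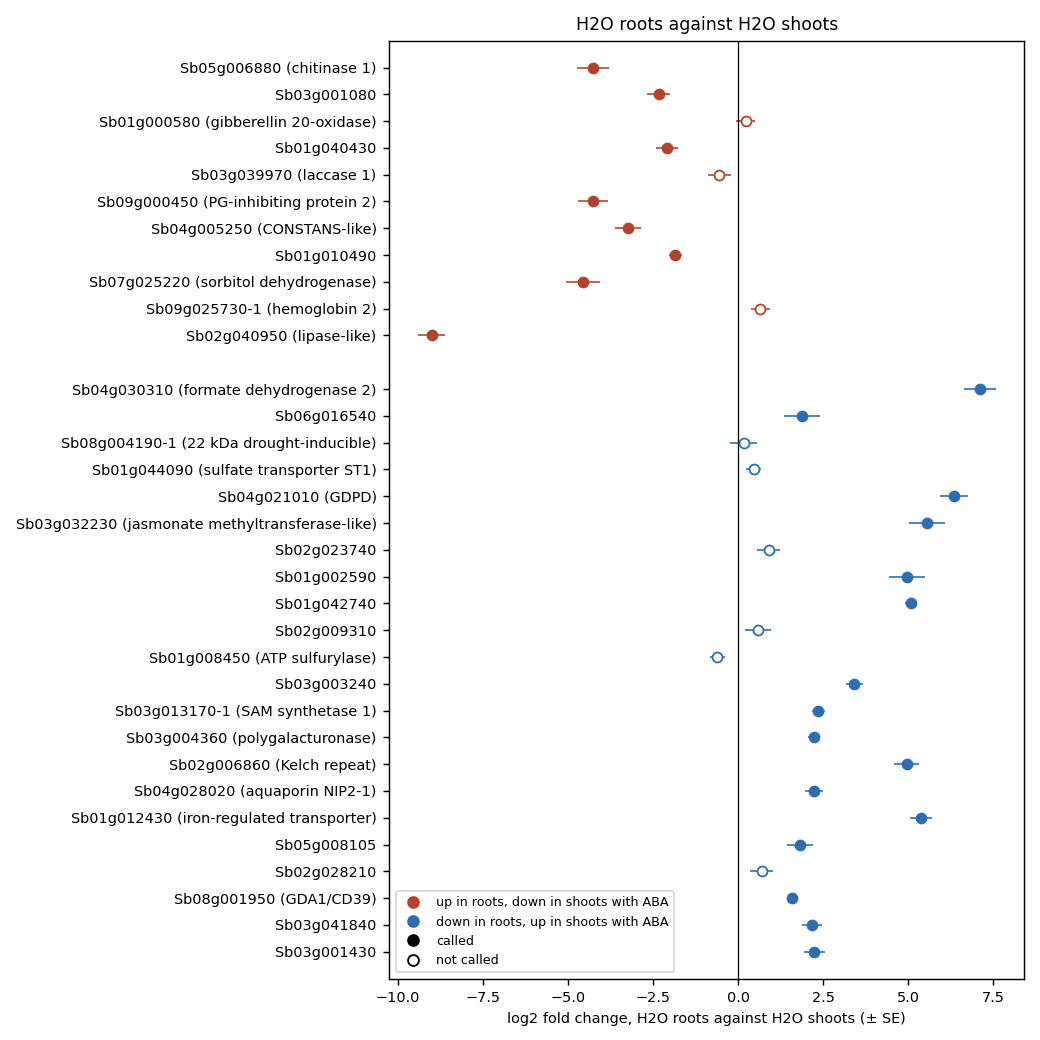
Log2 fold change of H2O roots against H2O shoots with its standard error (x axis, edgeR) for each of the 33 genes, red for root-up shoot-down and blue for root-down shoot-up genes, filled where called. The called red points lie between −9.02 and −1.85 and the called blue points between 1.59 and 7.11, and the value of Sb02g040950 rests on 2 reads in roots.

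PEG lowers water potential without added hormone, and the rule used neither its libraries nor their H2O controls, which were grown in the same experiments as the ABA and NaOH plants. The PEG response of the 33 genes could therefore be tested. In roots 790 of 22667 genes (3.49%) were called with PEG, 461 (2.03%) higher and 329 (1.45%) lower. Of the 11 root-up shoot-down genes 5 were called higher and 0 lower, with a median log2 fold change of 1.12 beside 0.0045 for all genes. At an unadjusted p under 0.05, 8 were higher and 0 lower, and DESeq2 called 5 higher and 0 lower. Among all 22667 genes DESeq2 called 872, 511 of them higher, and the share at an unadjusted p was not computed. Chitinase 1 Sb05g006880 rose most, with 16.5, 13.005 and 27.2 RPKM in PEG roots against 1.68, 1.28 and 4.92 in H2O roots (log2 fold change 2.76 ± 0.45, SE, edgeR adjusted p = 0.000533). Sorbitol dehydrogenase Sb07g025220 had 17.3, 13.3 and 21.1 RPKM in PEG roots against 2.69, 3.77 and 4.39 in H2O roots (2.21 ± 0.47, edgeR adjusted p = 0.00512). In both genes every PEG root library lay above the highest H2O root library. Sb01g040430 had 26.5, 18.8 and 13.4 RPKM in PEG roots against 6.03, 6.19 and 8.17 in H2O roots (1.48 ± 0.31, edgeR adjusted p = 0.00442). The CONSTANS-like Sb04g005250 had 17.4, 13.3 and 19.2 RPKM in PEG roots against 5.39, 5.67 and 9.18 in H2O roots (1.26 ± 0.36, edgeR adjusted p = 0.0345). Gibberellin 20-oxidase Sb01g000580 had 10.9, 8.07 and 11.4 RPKM in PEG roots against 3.85, 5.01 and 4.83 in H2O roots (1.12 ± 0.26, edgeR adjusted p = 0.00945). In these 3 genes too the PEG and H2O root libraries did not overlap. Laccase 1 Sb03g039970 had 25.7, 19.2 and 23.9 RPKM in PEG roots against 11.2, 10.0 and 13.6 in H2O roots and was not called (0.95 ± 0.35, edgeR adjusted p = 0.109), and hemoglobin 2 had a log2 fold change of −0.17 ± 0.28. The lipase-like Sb02g040950 had 10 reads in the PEG roots together and 2 in the H2O roots, a ratio of 4.66 with a counting interval of 1.29 to 38.5.

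Of the 22 root-down shoot-up genes 6 were called lower and 1 higher with PEG in roots, and their median log2 fold change was −0.40. Sb01g002590 fell most, with 1.05, 1.61 and 2.66 RPKM in PEG roots against 50.0, 55.0 and 55.8 in H2O roots (log2 fold change −4.89 ± 0.52, SE, edgeR adjusted p = 6.27e-06). The phosphodiesterase Sb04g021010 had 39.4, 40.8 and 58.1 RPKM in PEG roots against 362, 356 and 362 in H2O roots (−2.99 ± 0.34, edgeR adjusted p = 1.44e-05). In both genes the PEG root libraries overlapped the ABA root libraries. Sb06g016540 (−1.93 ± 0.54, edgeR adjusted p = 0.0312), the 22 kDa drought-inducible Sb08g004190-1 (−1.29 ± 0.39, edgeR adjusted p = 0.0483), Sb05g008105 (−1.27 ± 0.35, edgeR adjusted p = 0.0268) and Sb03g041840 (−1.23 ± 0.27, edgeR adjusted p = 0.00651) were also called lower. Sulfate transporter ST1 went the other way from its ABA value. It had 57.1, 56.6 and 57.2 RPKM in PEG roots against 27.7, 29.1 and 24.3 in H2O roots, and the call was for a rise (1.05 ± 0.21, edgeR adjusted p = 0.00339). Formate dehydrogenase Sb04g030310, with 609, 507 and 598 RPKM in PEG roots against 557, 594 and 1097 in H2O roots, was not called (−0.42 ± 0.35, edgeR adjusted p = 0.593), although ABA roots were at 48.1 to 84.4.

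Not all of these root calls stood when single libraries were left out. Of the 12 calls in roots 6 were kept without any one of the 12 PEG and H2O libraries, those of Sb01g040430, Sb05g006880, Sb07g025220, Sb01g002590, Sb03g041840 and Sb04g021010. Sb01g000580 lost its call without H2O roots replicate 1 (log2 fold change 1.01), Sb01g044090 without H2O roots replicate 3 (0.995), Sb04g005250 without PEG roots replicate 1 or 3 or H2O roots replicate 1 or 2 (1.12 to 1.22), Sb05g008105 without PEG roots replicate 1 or 2 or any 1 of the H2O root libraries (−1.31 to −1.10), Sb06g016540 without any 1 of the 6 root libraries (−2.16 to −1.73), and Sb08g004190-1 without any 1 of these 6 or PEG shoots replicate 1 or 3 (−1.40 to −1.18). No sign changed. The calls of Sb05g006880, Sb01g002590 and Sb04g021010 were also kept without replicate 1, 2 or 3 of every group, and the other 3 were not.

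In shoots 1072 genes (4.73%) were called with PEG, 619 (2.73%) higher and 453 (2%) lower. Of the 11 root-up shoot-down genes 0 were called higher and 5 lower, with a median log2 fold change of −0.85 beside 0.0031 for all genes. At an unadjusted p under 0.05, 0 were higher and 6 lower, and DESeq2 called 0 higher and 5 lower. Among all genes DESeq2 called 1174, 590 of them higher, and the share at an unadjusted p was not computed. The polygalacturonase-inhibiting protein Sb09g000450 fell most, with 5.33, 2.32 and 4.76 RPKM in PEG shoots against 35.0, 14.34 and 30.8 in H2O shoots (log2 fold change −2.90 ± 0.42, SE, edgeR adjusted p = 8.13e-05). Sb03g001080 had 1.58, 1.21 and 1.502 RPKM in PEG shoots against 5.00, 2.92 and 4.64 in H2O shoots (−1.76 ± 0.33, edgeR adjusted p = 0.00109). The lipase-like Sb02g040950 had 5.20, 4.61 and 4.98 RPKM in PEG shoots against 12.3, 12.6 and 13.1 in H2O shoots (−1.57 ± 0.22, edgeR adjusted p = 5.98e-05), groups that were each tight and did not overlap. Sb04g005250 had 29.2, 8.96 and 23.1 RPKM in PEG shoots against 43.3, 27.2 and 56.8 in H2O shoots (−1.26 ± 0.35, edgeR adjusted p = 0.018), and these libraries did overlap, with replicate 2 the lowest in both groups. Sb01g040430 was called as well (−1.15 ± 0.30, edgeR adjusted p = 0.0136). Chitinase 1 had 19.7, 41.0 and 39.1 RPKM in PEG shoots against 45.2, 35.0 and 25.8 in H2O shoots and gibberellin 20-oxidase 2.81, 2.80 and 4.01 against 2.08, 3.64 and 2.18, and neither was called (−0.30 ± 0.40 and 0.11 ± 0.27).

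Of the 22 root-down shoot-up genes 5 were called higher and 0 lower with PEG in shoots, and their median log2 fold change was 0.52. At an unadjusted p under 0.05, 12 were higher and 2 lower, and DESeq2 called 4 higher and 1, Sb05g008105, lower. The DESeq2 calls over all genes were 1174, of which 590 were higher, and no share at an unadjusted p was computed. Sb02g028210 had 17.7, 19.8 and 19.4 RPKM in PEG shoots against 4.07, 5.88 and 4.45 in H2O shoots (log2 fold change 1.79 ± 0.34, SE, edgeR adjusted p = 0.00128). Aquaporin NIP2-1 Sb04g028020 had 212, 137 and 194 RPKM in PEG shoots against 92.7, 47.7 and 92.1 in H2O shoots (1.004 ± 0.26, edgeR adjusted p = 0.013). Sb03g003240 (1.42 ± 0.24, edgeR adjusted p = 0.000467), Sb03g001430 (1.25 ± 0.31, edgeR adjusted p = 0.00953) and Sb02g023740 (1.19 ± 0.34, edgeR adjusted p = 0.0211) were the others. The jasmonate methyltransferase-like Sb03g032230 had 0.418, 2.44 and 0.786 RPKM in PEG shoots against 0.196, 0.0738 and 0.0820 in H2O shoots and passed the limits of p and fold (3.14 ± 0.58, edgeR adjusted p = 0.00102) but not that of depth. S-adenosylmethionine synthetase Sb03g013170-1 had 458, 440.1 and 427 RPKM in PEG shoots against 157, 252 and 217 in H2O shoots, and its log2 fold change stayed under 1 (0.89 ± 0.19, edgeR adjusted p = 0.00328).

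Of the 10 shoot calls 5 were kept without any one of the 12 libraries, those of Sb02g040950, Sb03g001080, Sb09g000450, Sb02g028210 and Sb03g003240. Sb01g040430 lost its call without PEG shoots replicate 2 or H2O shoots replicate 1 (log2 fold change −0.94 and −0.92), Sb04g005250 without PEG shoots replicate 2 or H2O shoots replicate 3 (−0.88 and −0.99), Sb02g023740 without PEG shoots replicate 3 or H2O shoots replicate 1 or 3 (1.004 to 1.21), Sb03g001430 without H2O shoots replicate 2 (0.95), and Sb04g028020 without H2O shoots replicate 2 or PEG shoots replicate 1 or 3 (0.72 to 0.93). Without H2O shoots replicate 2, the H2O shoot library least like the others, 2052 genes in all were called in place of 1072. Sb07g025220 and Sb05g008105 were then called lower in addition. The calls of Sb02g040950, Sb09g000450 and Sb03g003240 were also kept without replicate 1, 2 or 3 of every group. Aquaporin NIP2-1 was just past the limit of fold and was also not called by DESeq2 (0.95).

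Whether the PEG effect itself differed between the tissues was tested as the PEG effect in roots minus that in shoots. Over all genes 924 (4.08%) were called, 458 (2.02%) with a positive and 466 (2.06%) with a negative difference. The limit of depth was not applied to this difference, unlike in the other comparisons. Sb03g032230, which missed that limit in PEG shoots, and Sb02g009310, which missed it in PEG roots, could thus be called here. Sb02g009310 was low, with 0.369, 0.259 and 0.460 RPKM in PEG roots against 1.59, 2.01 and 1.87 in H2O roots. Its log2 fold change there was −2.32 ± 0.41 (SE, edgeR adjusted p = 0.00106). Of the 11 root-up shoot-down genes 7 were called and all 7 differences were positive, and the median over the 11 was 2.52 beside −0.020 for all genes. Sb02g040950 (3.59 ± 0.72, SE, edgeR adjusted p = 0.00548), Sb09g000450 (3.44 ± 0.60, edgeR adjusted p = 0.00187), Sb05g006880 (3.06 ± 0.60, edgeR adjusted p = 0.00428) and Sb07g025220 (3.06 ± 0.64, edgeR adjusted p = 0.00686) had the largest. The value of Sb02g040950 rests on the few reads of its root libraries. Sb01g040430 (2.63), Sb04g005250 (2.52) and Sb03g001080 (2.47) were the other 3. Of the 22 root-down shoot-up genes 9 were called with a negative and 1 with a positive difference, and the median over the 22 was −1.20. The largest in size were those of Sb01g002590 (−4.17 ± 0.83, edgeR adjusted p = 0.00501), Sb04g021010 (−4.001 ± 0.49, edgeR adjusted p = 8.06e-05), Sb03g032230 (−3.99 ± 0.69, edgeR adjusted p = 0.00169) and Sb06g016540 (−3.24 ± 0.76, edgeR adjusted p = 0.0141). The value of Sb03g032230 rests on 2 to 5 reads in each H2O shoot library. The positive difference was that of sulfate transporter ST1 (1.07 ± 0.30, edgeR adjusted p = 0.0395). Every called difference had its sign in 3 of 3 replicates.

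Sb01g040430 and the CONSTANS-like Sb04g005250 were called in both tissues, higher in roots and lower in shoots, a pattern that 7 of all 22667 genes (0.0309%) showed. Chitinase 1, sorbitol dehydrogenase and gibberellin 20-oxidase were called in roots and not in shoots, and Sb09g000450, Sb03g001080 and Sb02g040950 in shoots and not in roots. A call in one tissue alone does not show that the tissues differed, and for the gibberellin 20-oxidase Sb01g000580 the difference between them was not called (1.01 ± 0.38, edgeR adjusted p = 0.117). Of the 22 root-down shoot-up genes 0 were called lower in roots and higher in shoots with PEG, a pattern of 8 genes in all (0.0353%). With a replicate block 1 gene was, Sb06g016540, and with scaling by library size alone 2 were, Sb04g021010 and Sb06g016540. Without regard to calls, 9 of the 11 root-up shoot-down genes had a positive fitted PEG fold change in roots and a negative one in shoots, against 23.5% of all genes, and 13 of the 22 root-down shoot-up genes had the reverse, against 23.4%. Of the 17 called differences 15 were kept without any one of the 12 PEG and H2O libraries. The other 2 were those of Sb01g044090, kept only without H2O shoots replicate 2 (0.84 to 1.12 without each of the other 11), and Sb02g009310, lost without PEG roots replicate 1 or 2, H2O roots replicate 2 or H2O shoots replicate 1 or 3 (−2.22 to −2.02). Without replicate 1 of every group 0 of the 11 and 2 of the 22 differences were called, and over all genes 66 in place of 924. Without replicate 3 of every group 341 were called over all genes. The root-up shoot-down genes Sb02g040950, Sb03g001080, Sb04g005250, Sb07g025220 and Sb09g000450 then lost the call. So did Sb01g044090, Sb02g009310, Sb03g013170-1, Sb03g032230, Sb03g041840 and Sb06g016540 of the other class. Of the 17 differences 1, that of Sb04g021010, was kept under every alternative. Without H2O shoots replicate 2, 7 of the 11 and 11 of the 22 were called, and over all genes 2319.

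**Figure D4:**
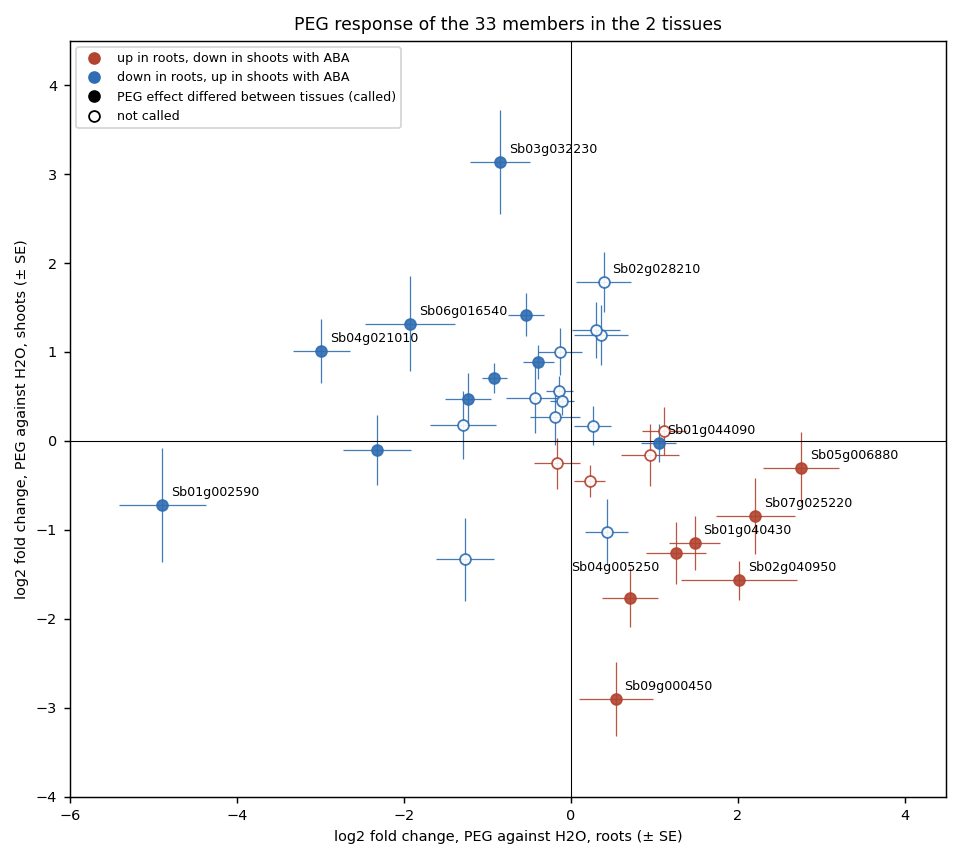
Log2 fold change of PEG against H2O in roots (x axis) and in shoots (y axis), each with its standard error from edgeR, for the 11 root-up shoot-down genes (red) and the 22 root-down shoot-up genes (blue), filled where the PEG effect was called different between the tissues. Red points lie mostly at the lower right, down to Sb09g000450 at 0.54 and −2.90, and the blue point of Sb01g044090 lies at 1.05 and −0.02.

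With PEG the related families behaved as follows among the study-called genes. Over all tested genes 2.03% were called higher and 1.45% lower in PEG roots, and 2.73% and 2% in PEG shoots. The study called the described genes in these same samples, so high counts are built in and are not independent evidence. The share over all described genes was not computed. Of 11 chitinases 4 were called higher and 2 lower in PEG roots, and 1 was higher and 4 were lower in PEG shoots. Of 10 laccases 1 was higher and 3 were lower in PEG roots, and 0 were higher and 1 was lower in PEG shoots. Of the 8 LEA and dehydrin genes 3 were called higher in PEG roots and 8 in PEG shoots, with 0 lower in either tissue. Of 7 genes of sulfate uptake and assimilation 1, sulfate transporter ST1, was called higher in PEG roots and 0 were called in PEG shoots.

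The files record few other features of the genes. Their exons had a median length of 1407 bases in the 11 genes and 1397 in the 22, beside 1182 over all gene models. They lay on 9 of the 10 chromosomes, 8 of them on chromosome 1 and 8 on chromosome 3, and the nearest pair, Sb03g001080 of the 11 and Sb03g001430 of the 22, were apart by 399310 bases. Of the 33, Sb04g005250 is the 1 gene that the study's tables class as a transcription factor.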

How the data were processed

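Per the labels and the paper, the authors trimmed single-end Illumina reads to 50 bases, aligned them with ELAND_rna of CASAVA 1.6 to the sbi1 genome, allowing 2 errors a read, and counted uniquely mapped reads over the Sbi1.4 gene models, so reads shared by near-identical copies are missing. The deposited count column proved to be aligned bases, since 93.23 to 96.09% of its values in a library are multiples of 50, and it was divided by 50 and rounded to give reads. The deposited RPKM column was taken as it stands for levels and for r, a log2 ratio of means with a pseudocount of 1, which understates the ratio of low genes. The deposited signal column, coverage depth (X), served the depth limit of 2X. No genome or RefSeq name matched the gene models (0 of 33), so names are those of 4002 models described in the study's tables, positions are those of the deposited files, and promoter and protein sequences were not used here. A suffix such as -1 is part of a model's name.

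Differences were tested by edgeR 4.0.16 (R 4.3.3) with TMM scaling, filterByExpr, a robust quasi-likelihood fit of 24 libraries with a mean for each of 8 groups, and Benjamini-Hochberg adjustment over 22667 genes. The limits of adjusted p (0.05), log2 fold change (1) and depth follow the study. The depth limit was not applied to the difference of the PEG effects. The fit was tested on simulated data. Alternatives were DESeq2 1.42.0, its size factors, library size alone, no filter, no depth limit, a fit per tissue, a replicate term, other limits and pseudocounts, and each replicate left out. Each of 12 ABA and NaOH libraries, and 10 of the 12 PEG and H2O libraries, were left out as alternatives chosen after seeing the data. Replicate numbers mark separate hydroponic experiments per the paper and so pair the samples. Deviations of same-numbered PEG and H2O libraries from their group means correlated at 0.0103 to 0.288 in roots and 0.35 to 0.578 in shoots. The members and gene lists were chosen with earlier results of these data known. Named in each class were the 10 members with the largest smaller ratio, those called with PEG, those of a listed family and those nearest the limit. Sb01g008450, Sb01g012430, Sb02g006860, Sb03g004360 and Sb08g001950 fell outside and were named after their values were seen, so that all 33 members are accounted for. A list of root markers held 2 nicotianamine synthase genes, whose summed RPKM overlapped between the tissues with ABA and with H2O. With NaOH it was 174 to 229 in roots against 235 to 275 in shoots. With PEG it was 109 to 150 in roots against 153 to 172 in shoots. The list was thus not higher in roots and could not check them. Figures used matplotlib 3.10.9 with Python 3.11.15.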

Additional observations from a re-analysis of the deposited data

Results flagged for a closer look

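Each of the following was picked out because the effect of PEG on a gene differed between roots and shoots by a test of the difference itself, with edgeR's quasi-likelihood test and Benjamini-Hochberg adjustment over all genes. The values are the log2 PEG effect in roots minus that in shoots, with no limit of depth applied. Of these 17 calls 1, that of Sb04g021010, was kept under every alternative, and the others were lost with some replicate or library left out. Among root-up shoot-down genes it was 3.59 for the lipase-like Sb02g040950, of which H2O roots held 2 reads, 3.44 for the polygalacturonase-inhibiting protein Sb09g000450, and 3.06 for both chitinase 1 Sb05g006880 and sorbitol dehydrogenase Sb07g025220. It was 2.63 for Sb01g040430, 2.52 for the CONSTANS-like Sb04g005250 and 2.47 for Sb03g001080.

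Among root-down shoot-up genes the difference was −4.17 for Sb01g002590 and −4.0 for the glycerophosphodiester phosphodiesterase Sb04g021010. It was −3.99 for the jasmonate methyltransferase-like Sb03g032230, of which each H2O shoot library held 2 to 5 reads, and −3.24 for Sb06g016540. It was −2.22 for Sb02g009310, −1.95 for Sb03g003240, −1.70 for Sb03g041840, −1.63 for Sb01g042740 and −1.28 for S-adenosylmethionine synthetase Sb03g013170-1. Sulfate transporter ST1 Sb01g044090 had 1.07, whereas its ABA ratio was lower in roots than in shoots.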

How the results depend on the processing

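No direction was reversed under the alternatives among r of the members and the fold changes of called members. For r this was fixed in advance with a replicate left out or another pseudocount. The rule took only genes whose ABA and NaOH libraries do not overlap, so neither change can turn the sign. Scaling by TMM was the only alternative for r that could have done so. Fold changes of members that were not called were not checked for their sign. The limits of the rule set how many genes it takes: with a pseudocount of 2 it gave 5 root-up shoot-down genes, with a 1.5-fold limit 73 and 108 genes of the 2 classes, with r of at least 1.5 in size 1 and 3, and with overlap allowed 17 root-up shoot-down genes. Leaving out replicates or single libraries gave 9 to 20 and 17 to 31 genes, the highest of the first class, 20 and 17, without NaOH roots replicate 3 and without NaOH shoots replicate 2 or ABA shoots replicate 1. Under the same leave-outs the members called were 1 to 5 of the 11 and 2 to 7 of the 22 for PEG in roots, 2 to 6 and 1 to 6 for PEG in shoots, 0 to 7 and 2 to 13 for the difference of the PEG effects, and 8 and 15 to 17 for H2O roots against H2O shoots, the lowest without replicate 1 or 3. Scaling by library size alone called 8 root-down shoot-up genes with PEG in shoots. It shifted the median of all genes by 0.21 for PEG in shoots, −0.21 for the difference and 0.73 for H2O roots against H2O shoots, where 856 of 1104, 335 of 1089 and 7035 of 10122 calls were higher, against 619 of 1072, 458 of 924 and 3979 of 8008 with TMM. Over all genes, leaving out libraries gave 321 to 850 calls with PEG in roots, against 790, 615 to 2052 with PEG in shoots, against 1072, and 66 to 2319 for the difference, against 924. With a replicate block, which respects the pairing, the rule gave 16 and 24 genes, and 5 of the 11 and 7 of the 22 were called with PEG in roots, 5 and 6 in shoots, 7 and 12 for the difference and 8 and 16 for the tissues, so it ended no call. Apart from leave-outs, 377 values of called members kept their call and 6 lost it: aquaporin NIP2-1 in PEG shoots with DESeq2 and its size factors, Sb01g040430 in shoots and Sb01g044090 for the difference with library size alone, Sb08g004190-1 in roots with no filter, and Sb04g005250 in shoots in the fit of the tissue. The cause was not tested. Each library pools plants, and with 3 a group the tests see only the spread between experiments.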
